A study of Mus musculus with 10 samples.

Results

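The genes of the proteasome were examined in the RPE, or retinal pigment epithelium, the layer of pigmented cells that lies against the photoreceptors, after overexpression of the transcription factor Nrf2. Members were chosen by name: protein-coding genes whose symbols start with Psma, Psmb, Psmc, Psmd or Psme and a digit, together with Pomp, and without Psmb8 and Psmb9. This gave 44 of the 47729 genes in the count table. The rule used no measured value. One of the 44, Psmc3ip, carries the name of an ATPase gene that it binds to and encodes a factor of meiotic recombination rather than a subunit, so it is given apart from the role groups. The others fall into 7 alpha and 7 beta subunits of the constitutive core, 3 core subunits of immune cells, thymus or testis (Psmb10, Psmb11 and Psma8), 6 ATPases, 3 further subunits of the base, 8 subunits of the lid, 4 assembly chaperones and 5 activator genes.

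The libraries came from 5 wild-type CD1 mice, each at postnatal day 40 (P40). In each mouse, 1 eye received AAV Best1-GFP by subretinal injection (GFP control) and the other eye AAV Best1-GFP plus AAV Best1-Nrf2 (Nrf2), so all 10 eyes carried the GFP vector and only the Nrf2 eyes an additional one, with no eye given an equal amount of another vector. AAV is a virus used to carry genes into cells, the Best1 promoter is a human promoter active in the RPE, and the Nrf2 cDNA in the vector is human. The Nrf2 vector was packaged in the AAV8 capsid and the GFP vector in 7M8. Per the labels, after removal of the retina, RNA was purified from the supernatant that the cleaned eyecup gave in RNA Protect, a step that serves to collect RNA of the RPE. Markers of other cells of the eye were counted in these libraries as well.

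The proteasome is the barrel-shaped protease that degrades proteins tagged with ubiquitin. Its 20S core holds alpha rings, which form the gate, around beta rings, which hold the proteolytic sites of Psmb5, Psmb6 and Psmb7. The 19S particle sits on the core: its base, with a ring of ATPases, unfolds substrates, and its lid removes ubiquitin through Psmd14. Other activators can take the place of the 19S particle, and interferon exchanges the catalytic subunits for the immune forms Psmb8, Psmb9 and Psmb10. Nrf2 is known to bind antioxidant response elements (AREs) in the promoters of its target genes, and several proteasome genes have been named among them in other tissues. Nrf1, the product of Nfe2l1, is the related factor that restores proteasome genes when the proteasome is impaired. RPE cells degrade large amounts of material shed by photoreceptors each day, mainly in lysosomes, and the proteasome is a parallel route for their own damaged proteins.

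Library totals ran from 12298404 to 27310638 counts. Values are CPM, counts relative to library sizes scaled by the TMM method of edgeR, and a count of 0 would allow up to 0.110 to 0.244 CPM, for counting error only. All 8 RPE markers had counts in all 10 libraries. Of these, 4 were called lower in Nrf2 eyes by edgeR, that is with an adjusted p-value under 0.05: Rpe65, Rgr, Rlbp1 and Otx2, with log2 fold changes of -2.88, -2.87, -1.93 and -0.63, of which Otx2 lost its call in 7 of 11 alternatives. Mitf (-0.26), Ttr (0.00), Tyrp1 (0.24) and Best1 (0.70, at most 1.56 CPM) were not called. Of 10 marker genes of macrophages and microglia, 8 were called higher, with a median log2 fold change of 4.77 over the list. Over all genes tested, 3.60% were called higher and 2.73% lower. Ptprc (1.87) and Csf1r (-0.57) were not called. The summed level of the 10 was 151 to 277 CPM in control eyes and 295 to 1546 CPM in Nrf2 eyes, and without Csf1r it was 11.4 to 35.2 CPM in control eyes and 236 to 1331 CPM in Nrf2 eyes. The summed level of 8 rod markers ranged from 34.8 to 16739 CPM in control eyes and from 53.8 to 6318 CPM in Nrf2 eyes, and that of 6 muscle markers from 45.8 to 85.0 and from 5.49 to 530.1 CPM. No marker of the RPE, macrophage, interferon or muscle lists was at 0 in any library. In bulk samples fewer cells of a type and less RNA per cell cannot be told apart. Nfe2l2, the mouse Nrf2 gene, had 89.5 ± 14.7 CPM in control and 352 ± 57.1 CPM in Nrf2 eyes (SD, n = 5 each) and was called higher, at a level that may include human reads of the vector.

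Expression of proteasome genes differed little between the eyes. Of the 44 members, 43 had enough counts for a test, and in 0 of them was the adjusted p-value under 0.05 in either direction. Over all 16362 genes tested by the same edgeR fit, 3.60% were called higher and 2.73% lower, 6.33% in all. Among the 8054 genes with a mean of at least 20 CPM, a level that 40 of the members reached, 7.85% were called. At an unadjusted p under 0.05, 4 members were higher and 6 were lower, against 9.58% and 9.53% of all genes (19.1% in either direction), so that the members' 10 of 43 were near the background. DESeq2 called 1 member, Psma2, with 9.25% of all genes called. The lowest adjusted p-value of a member in edgeR was 0.0797, for Psma2.

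The sizes of the differences were small as well as not significant. The median log2 fold change of the 43 members was -0.06, with 15 above 0 and 28 (65.1%) below, and that of all genes tested was -0.01, with 51.3% below 0, or 55.9% at a mean of at least 20 CPM. In the fit without mouse 3 the median was 0.03 in the members and 0.04 in all genes. The medians of the beta subunits (0.03), the ATPases (0.01), the lid (0.03) and the assembly chaperones (0.02) were then above 0. Those of the alpha subunits and of the other base genes were -0.05 each. All 5 fits that left out 1 mouse had a median above 0 over all genes, from 0.01 to 0.04, against -0.01 with all mice. What this shift adds to the medians of the members was not tested. Over the 5 fits that each left out 1 mouse, the median ran from -0.04 to 0.03 in the members, from -0.13 to -0.05 in the alpha subunits, from -0.08 to 0.03 in the beta subunits, from -0.08 to 0.01 in the ATPases, from -0.16 to -0.05 in the other base genes, from -0.06 to 0.03 in the lid, from -0.05 to 0.02 in the chaperones and from 0.24 to 0.38 in the activators. With a covariate for rod markers, the medians were -0.20 in the other base genes, -0.10 in the lid and 0.18 in the activators. They were then -0.13 in the alpha subunits, -0.04 in the beta subunits, -0.07 in the ATPases and -0.07 in the chaperones. The members had -0.06 and all genes -0.02. In the reported fit and without regard to sign, the median was 0.12 in the members, 0.20 in all genes and 0.15 in the genes with at least 20 CPM. For 37 of the 43 members the 95% interval of the fold change (from limma-voom) lay within 1.5-fold in either direction, which held for 6779 of the 16362 genes (41.4%), and for 37 of the 40 members with at least 20 CPM (92.5%), against 66.4% of all genes at that level. The 6 members with wider intervals were Psma8, Psmb10, Psme2, Psme2b, Psme4 and Psmc3ip. Only Psma8, a testis form of an alpha subunit, had a fitted difference above 1.5-fold, and it had at most 31 counts in any library. Members also varied less than most genes between animals: the median coefficient of variation over the control eyes was 7.27% in the members and 24.7% in all genes, and 16.7% in the genes with at least 20 CPM.

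**Figure D1:**
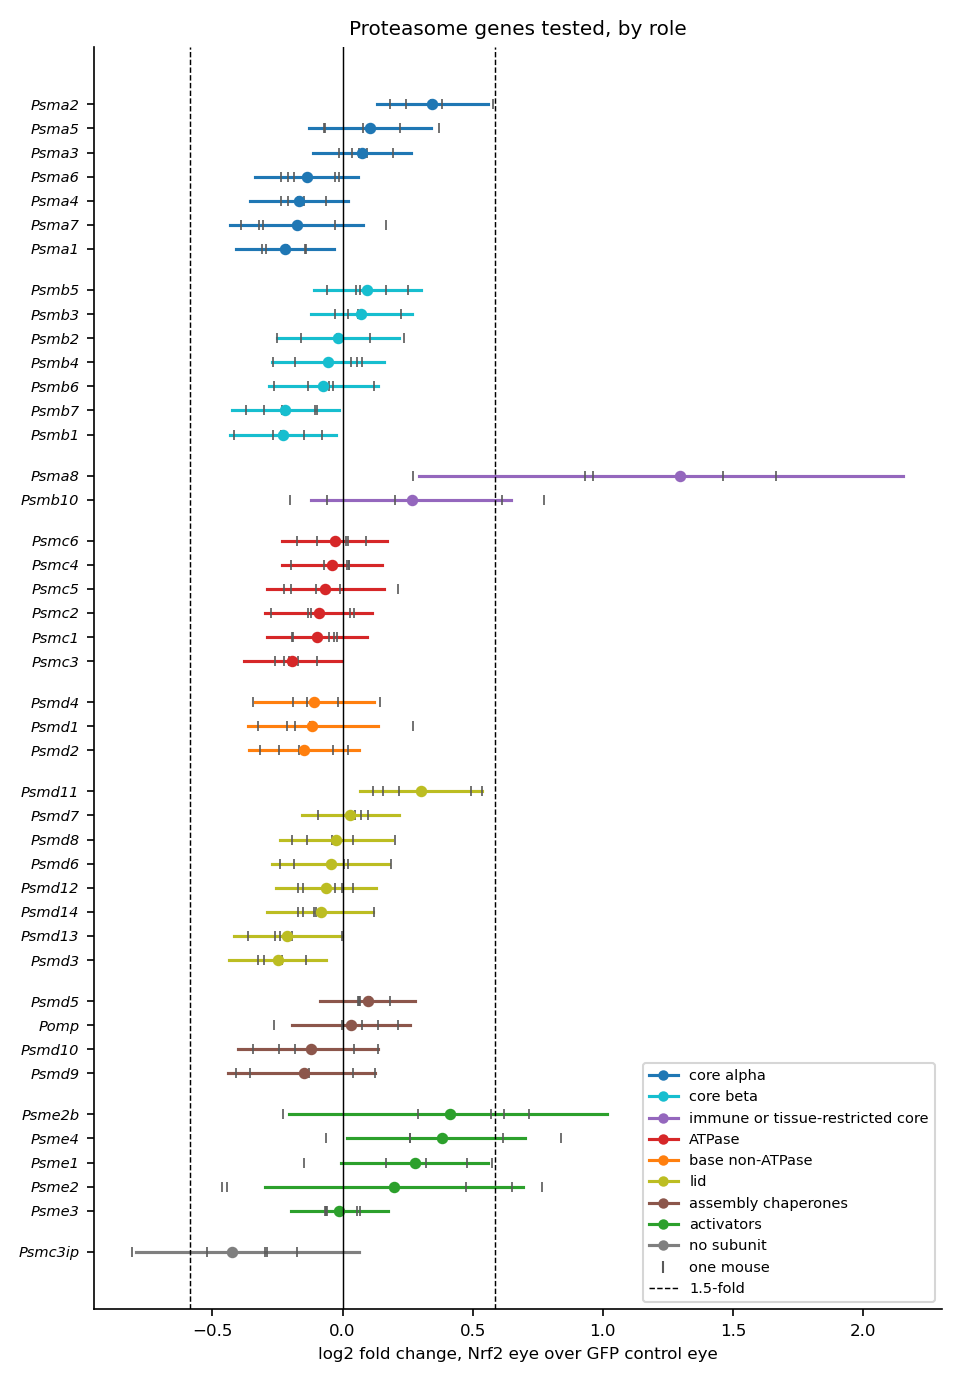
Log2 fold change of each of the 43 members tested (dots, fitted by edgeR with mouse as a block), with its 95% interval from limma-voom (lines) and the difference in each of the 5 mice (ticks), grouped by role. The dashed lines mark 1.5-fold, and the intervals of 37 members lie between them.

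The promoters were searched for the core of the ARE, TGACNNNGC, on both strands, in the RefSeq promoter sequences (GRCm38.p6, 250 bases before to 50 after each start). Of the members, 37 had an entry, with 40 promoters. The motif was found in 6 of these 40 promoters (15%), and in 12.4% of all 32851 promoters of the same length. Per gene, 6 of 37 members (16.2%) held it, against 16.8% of the tested genes with an entry and 22.2% of the genes called higher. Among comparison genes, the search found sites in Gclm, Txnrd1, Srxn1 and Mafg and none in Nqo1, Hmox1, Gclc, Akirin2 and Sqstm1. A missing promoter entry would also count as none. The sites of all 6 members, to be read beside those of 2 antioxidant genes that rose with Nrf2, are given here on the strand of the gene, with the motif or its reverse complement in capitals. They share the fixed letters of the motif and differ in the letters at N.
Psmb5, chr14:54618024-54618052, minus strand: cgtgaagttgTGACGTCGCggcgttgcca
Psmb6, chr11:70525338-70525356, plus strand: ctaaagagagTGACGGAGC
Psmd9, chr5:123228149-123228177, plus strand: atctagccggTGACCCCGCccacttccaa
Psmc6, chr14:45329587-45329615, plus strand: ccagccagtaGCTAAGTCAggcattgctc
Psmd12, chr11:107479278-107479299, plus strand: tctGCTGTGTCAcatttgcccc
Psme4, chr11:30771758-30771776, plus strand: cgctgcggctGCAGCGTCA
Gclm, chr3:122245413-122245441, plus strand: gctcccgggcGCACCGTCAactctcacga
Txnrd1, chr10:82859104-82859132, plus strand: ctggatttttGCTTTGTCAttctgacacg

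From the RefSeq start, the sites lie 47 to 39 bases upstream in Psmb5, 9 to 1 in Psmb6, 31 to 23 in Psmd9, 227 to 219 in Psmc6 and 247 to 239 in Psmd12, a lid gene. The site of Psme4, an activator gene with the highest log2 fold change of the 6 (0.38), runs across the start. The 6 members with the motif had a median log2 fold change of -0.05 (-0.15 to 0.38) and the 30 tested members with an entry but without it also had -0.05 (-0.43 to 0.41). In the same libraries Gclm, the modifier subunit of glutamate-cysteine ligase, went from 139.7 ± 27.4 CPM in control eyes up to 1068 ± 60.2 CPM (SD, n = 5 each), with 111 to 179 CPM in the control eyes and 980 to 1134 CPM in the Nrf2 eyes. Txnrd1, thioredoxin reductase 1, had 85.0 to 126 CPM in control eyes and 1672 to 2149 CPM in Nrf2 eyes. A match is a description of these letters and does not show a bound site.

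Per length of exon, the members lay at unequal levels. In control eyes, where RPKM is the CPM of a gene divided by the length of its merged exons in kilobases, the beta subunits had 19.9 to 130 RPKM with a median of 45.6, the alpha subunits 27.7 to 72.5 with a median of 38.4, the ATPases 16.7 to 105 with a median of 63.9, and the lid subunits 14.3 to 49.2 with a median of 30.7. Psmb2, a beta subunit without a proteolytic site, was the member with the highest level, at 130 ± 16.1 RPKM (SD, n = 5), followed by the ATPase gene Psmc5 at 105 ± 10.9 RPKM and Psmb6 at 89.2 ± 3.16 RPKM. The SDs of Psmb2 and Psmc5 overlapped. The assembly chaperones were lower, at 3.93 to 24.5 RPKM. Among the activators Psme2 had 75.8 ± 22 RPKM and Psme4 had 2.72 ± 0.86 RPKM. Merged exons include parts that a tissue may not use, which lowers the RPKM of genes with many alternative ends.

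**Figure D2:**
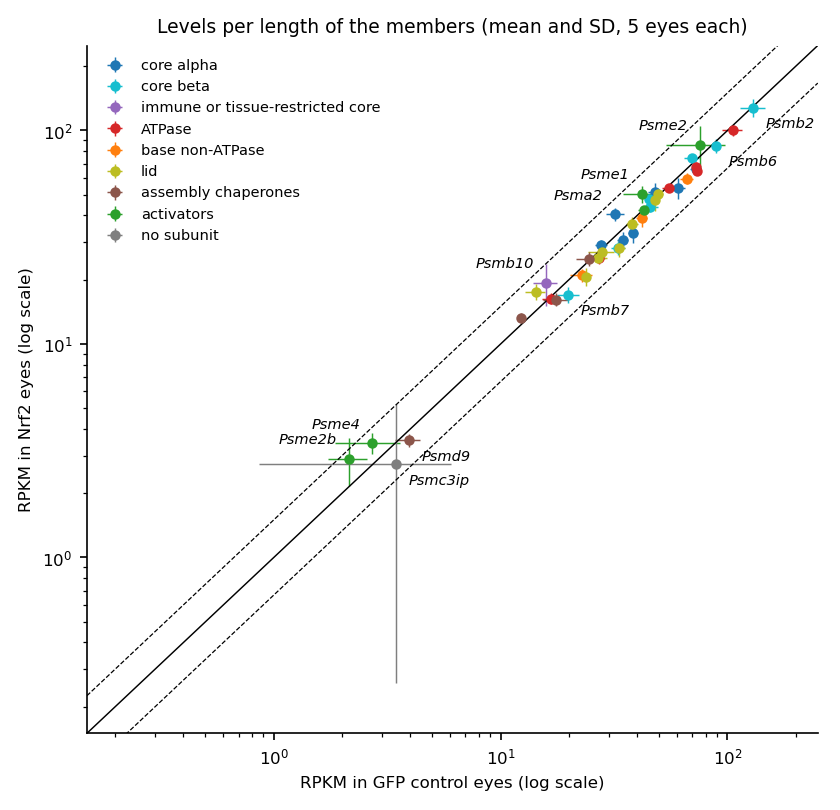
Mean level per length of exon in control eyes (x axis) and in Nrf2 eyes (y axis), both in RPKM on log scales, for the 42 members above 1 RPKM, with SD over 5 eyes as error bars and colours by role. The solid line marks equality and the dashed lines 1.5-fold, and the mean of every member shown lies between the dashed lines.

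The proteolytic sites of the constitutive core are encoded by Psmb5 (chymotrypsin-like), Psmb6 (caspase-like) and Psmb7 (trypsin-like). Psmb5 (ENSMUSG00000022193, chromosome 14, 54614119 to 54618022, mm10) had 58.7, 56.8, 67.4, 63.9 and 66.0 CPM in the control eyes of mice 1 to 5 and 69.9, 63.7, 64.6, 66.3 and 69.2 CPM in their Nrf2 eyes. The Nrf2 eye was the higher in 4 of 5 mice and the groups overlapped, with a log2 fold change of 0.10 (adjusted p = 0.651, SE 0.05). Psmb6 (ENSMUSG00000018286, chromosome 11, 70525367 to 70527858) had 160.4, 161, 172, 168 and 173 CPM in the control eyes and 174, 155, 143, 154 and 168 CPM in the Nrf2 eyes. Here only mouse 1 had the higher value in the Nrf2 eye, and the log2 fold change was -0.07 (adjusted p = 0.768, SE 0.06).

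Psmb7 (ENSMUSG00000026750, chromosome 2, 38588036 to 38644087) had 64.7, 56.8, 76.4, 68.9 and 73.9 CPM in control eyes and 60.1, 53.1, 65.0, 53.2 and 59.8 CPM in Nrf2 eyes. It was lower in the Nrf2 eye of all 5 mice, the groups overlapped, and the log2 fold change of -0.22 (SE 0.05) did not pass the threshold (adjusted p = 0.214). Psmb7 overlaps Nek6 on the opposite strand, which has more counts (log2 fold change -0.11), and the strand setting of the counting was not stated. Psmb2, the beta subunit with the smallest difference, had 152, 143, 164, 137 and 186 CPM in control eyes and 178, 141, 147, 148 and 157 CPM in Nrf2 eyes, with 2 mice higher and 3 lower (log2 fold change -0.02, SE 0.09). The median over the 7 beta subunits was -0.06, from -0.23 (Psmb1, a structural subunit) to 0.10 (Psmb5).

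The alpha subunits had a median log2 fold change of -0.14, from -0.22 to 0.35, with 3 above 0 and 4 below. Psma3, a ring subunit and the smallest difference among them, had 102, 106, 103, 119 and 110 CPM in control eyes and 117, 111, 110.1, 123 and 109 CPM in Nrf2 eyes. These values overlapped, with a log2 fold change of 0.08 (adjusted p = 0.717, SE 0.03). Psma2, also a ring subunit, was picked out after its values were seen, as the member with the lowest adjusted p-value. It had 121, 117, 122, 99.2 and 127 CPM in control eyes and 158, 139, 138, 148 and 161 CPM in Nrf2 eyes, so the groups did not overlap and every Nrf2 eye was above all control eyes.

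The log2 fold change of Psma2 (ENSMUSG00000015671, chromosome 13, 14613240 to 14674236) was 0.35 (SE 0.07), a level 1.27-fold higher in the Nrf2 eyes. Its adjusted p-value was 0.0797 in edgeR and 0.0370 in DESeq2, and it stayed above 0.05 under every other alternative. Psma2 shares its locus with AW209491 on the same strand, a gene with fewer counts and a log2 fold change of -0.22. The groups also did not overlap in Psmb1 and in the ATPase gene Psmc3, which were both lower in the Nrf2 eyes, by log2 fold changes of -0.23 (adjusted p = 0.210) and -0.19 (adjusted p = 0.253). Psmc3 overlaps Slc39a13 on the opposite strand, a gene with fewer counts and a log2 fold change of 0.19. These 3 of 43 members (6.98%) compare with 6.12% of all genes, beside the 6.33% called. A single direction in all 5 mice was seen in 14 members (32.6%), against 20.2% of all genes, and at a mean of at least 20 CPM in 30% of the members against 22.8% of all genes.

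All 6 ATPase genes and all 3 other base genes had fitted differences below 0 and none passed the threshold, beside 55.9% of the genes with at least 20 CPM below 0. In the fit without mouse 3, Psmc4 (0.06), Psmc5 (0.03) and Psmc6 (0.05) were above 0, as was the median of all genes (0.04). The ATPases Psmc1 to Psmc6 ran from -0.19 to -0.03, with a median of -0.08, and the base genes Psmd1, Psmd2 and Psmd4 from -0.15 to -0.11, with a median of -0.12. Psmc6, the ATPase gene with the smallest difference, had 54.9, 62.8, 60.1, 51.5 and 62.2 CPM in control eyes and 55.5, 55.6, 56.2, 54.8 and 63.2 CPM in Nrf2 eyes. Psmd4, the ubiquitin receptor of the base, had 112, 117, 117, 113 and 128 CPM in control eyes and 123, 115, 103, 103 and 101 CPM in Nrf2 eyes. In both genes the groups overlapped, and Psmd4 was higher in the Nrf2 eye of mouse 1 only (log2 fold change -0.11, SE 0.08).

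In the lid, Psmd14 (ENSMUSG00000026914, chromosome 2, 61711694 to 61800376), the deubiquitinase that frees substrates from ubiquitin, had 73.5, 72.5, 83.7, 65.0 and 82.9 CPM in control eyes and 68.5, 67.2, 75.4, 70.7 and 73.6 CPM in Nrf2 eyes. The groups overlapped and the log2 fold change was -0.08 (adjusted p = 0.704, SE 0.05). Psmd8, a structural subunit with the smallest difference in the lid, had 142, 155, 145, 145 and 146 CPM in control eyes and 163, 159.7, 142, 132 and 127 CPM in Nrf2 eyes, which spread on both sides of the control values.

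The 2 members at the ends of the lid, Psmd11 and Psmd3, were chosen after their values were seen. Both are structural lid subunits. Psmd11 had 87.0, 92.3, 91.2, 79.9 and 105 CPM in control eyes and 126, 107, 102, 112 and 113 CPM in Nrf2 eyes, higher in the Nrf2 eye of all 5 mice, with 1 Nrf2 eye below the highest control eye. Psmd3 had 179, 165, 170.1, 157 and 159 CPM in control eyes and 162, 139, 138, 133 and 127 CPM in Nrf2 eyes, lower in all 5 mice, with the Nrf2 eye of mouse 1 within the control values. The log2 fold changes of 0.30 (adjusted p = 0.146, SE 0.09) and -0.25 (adjusted p = 0.141, SE 0.03) lay on opposite sides of 0, and neither passed the threshold. The lid as a whole had a median of -0.05.

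The assembly factors, of which Psmd5, Psmd9 and Psmd10 bind ATPases while the base is built, ran from -0.15 (Psmd9) to 0.10 (Psmd5), with a median of -0.04. Pomp (ENSMUSG00000029649, chromosome 5, 147860461 to 147876456), the maturation factor of the core, had 121, 114, 134, 118 and 151 CPM in control eyes and 139.9, 126, 141, 118 and 126 CPM in Nrf2 eyes. It was lower in the Nrf2 eye of mouse 5, about equal in mouse 4 and higher in the other mice, with a log2 fold change of 0.03 (adjusted p = 0.919, SE 0.08). Psmd5 overlaps Cutal on the opposite strand, whose level fell (log2 fold change -0.91, adjusted p = 0.0381), so its own value of 0.10 may include reads of that gene.

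**Figure D3:**
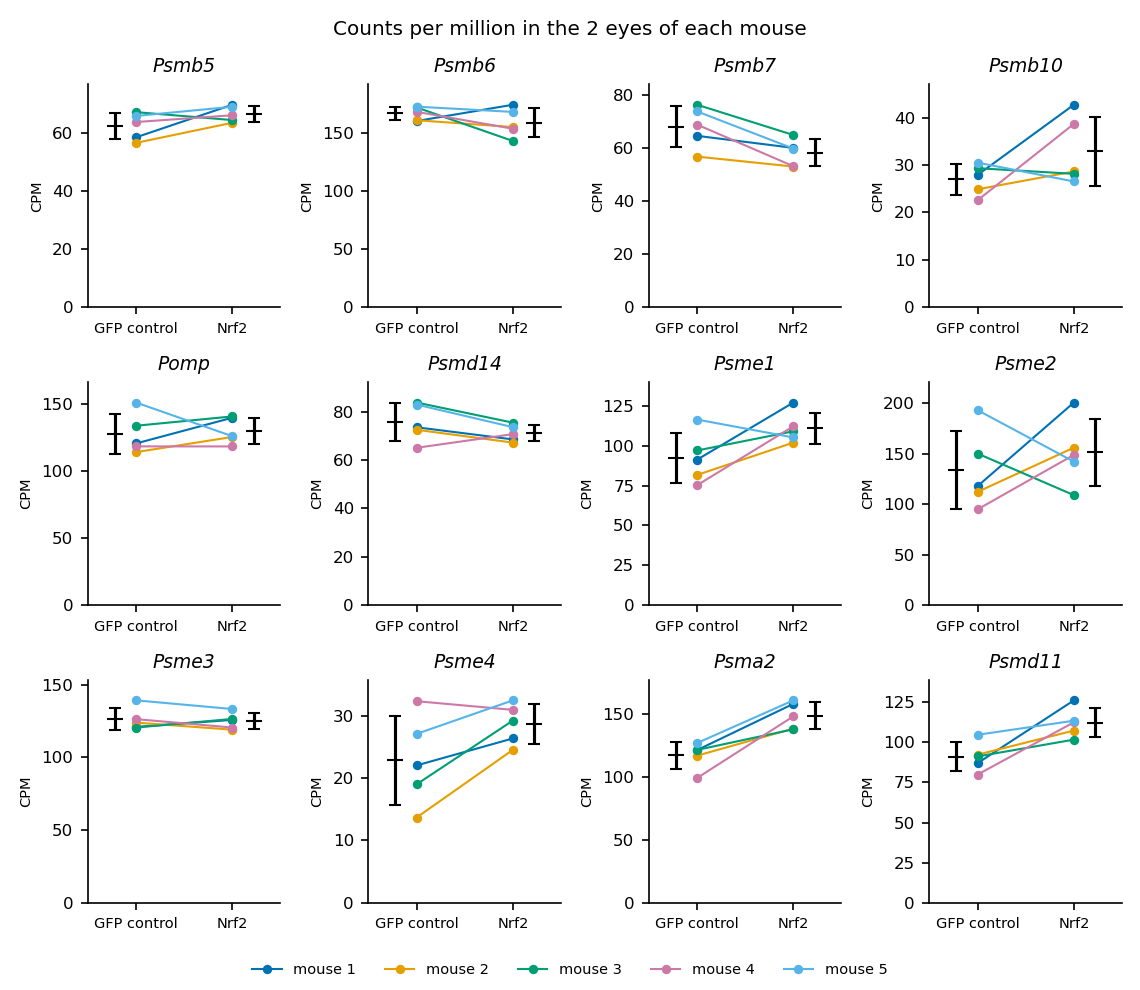
CPM in the GFP control eye and the Nrf2 eye of each mouse (joined points, 1 colour per mouse) for 12 members, with the mean and SD of each group at the sides and the vertical axes starting at 0. The Nrf2 eyes of Psma2 all lie above its control eyes, Psmb10 and Psme2 are higher in the Nrf2 eyes of mice 1, 2 and 4 and lower in those of mice 3 and 5, and the other panels have overlapping groups.

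The activators had a median of 0.28, with 4 of 5 above 0 and 0 called, beside 7969 of all 16362 genes above 0 and 6.33% called. Psme1 and Psme2 encode the alpha and beta subunits of the PA28 ring, which is induced by interferon and opens the core for peptides. Psme1 (ENSMUSG00000022216, chromosome 14, 55578123 to 55581529) had 91.4, 81.8, 97.1, 75.3 and 117 CPM in control eyes and 127, 102, 109, 112 and 105 CPM in Nrf2 eyes. The Nrf2 eye was the higher in 4 of 5 mice, with a log2 fold change of 0.28 (adjusted p = 0.269, SE 0.13). It overlaps Emc9 on the opposite strand, a gene with fewer counts and a log2 fold change of -0.16. Psme2 (ENSMUSG00000079197, chromosome 14, 55587441 to 55591113) had 118, 112, 150.1, 94.8 and 193 CPM in control eyes and 201, 156, 109, 149 and 142 CPM in Nrf2 eyes, higher in mice 1, 2 and 4 and lower in mice 3 and 5 (log2 fold change 0.20, adjusted p = 0.730, SE 0.27).

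Psme4 (ENSMUSG00000040850, chromosome 11, 30771726 to 30880361), the gene of the large single-chain activator PA200, had 22, 13.7, 19, 32.3 and 27.1 CPM in control eyes and 26.4, 24.5, 29.2, 30.9 and 32.5 CPM in Nrf2 eyes. It was higher in the Nrf2 eye of 4 mice and lower in that of mouse 4, with a log2 fold change of 0.38 (adjusted p = 0.219, SE 0.16). Psme3, which encodes PA28 gamma, the nuclear ring that does not depend on interferon, had 121, 124, 120.5, 126 and 139 CPM in control eyes and 126, 119, 126, 120.5 and 133 CPM in Nrf2 eyes. With -0.01 (SE 0.03), it had the smallest log2 fold change of all members in size. Psme2b is nearly identical to Psme2 and overlaps 9930111J21Rik1 on the same strand, which has more counts (log2 fold change 0.23), so it could share reads with both. It had 1.76, 2.04, 2.18, 1.75 and 1.28 CPM in control eyes and 2.18, 1.72, 3.30, 2.74 and 2.17 CPM in Nrf2 eyes. Its groups overlapped, with a log2 fold change of 0.41 (adjusted p = 0.503, SE 0.17).

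Psmb10 (ENSMUSG00000031897, chromosome 8, 105935735 to 105938444), the immune counterpart of Psmb7, had 27.9, 24.9, 29.3, 22.6 and 30.5 CPM in control eyes and 42.7, 28.7, 28.2, 38.7 and 26.6 CPM in Nrf2 eyes. The Nrf2 eyes of mice 1 and 4 were above all control eyes and the other 3 lay within them, with a log2 fold change of 0.27 (adjusted p = 0.482, SE 0.19). Psma8 had 0.05 to 0.60 CPM in control eyes and 0.19 to 1.23 CPM in Nrf2 eyes (log2 fold change 1.30, adjusted p = 0.117, SE 0.24), higher in all 5 mice at levels near the floor. Psmb11, the thymus subunit, had 1 to 13 counts in a library and was not tested.

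The mice were not alike in the members that interferon induces. The difference in Psmb10 on the log2 scale was 0.61, 0.20, -0.06, 0.77 and -0.20 in mice 1 to 5, and in Psme2 it was 0.77, 0.48, -0.46, 0.65 and -0.44. Psme1 had 0.48, 0.32, 0.17, 0.58 and -0.15. The immune subunits Psmb8 and Psmb9, which the choice of members left out, had differences of 1.06, 0.29, -0.71, 1.39 and -0.64 and of 0.87, -0.25, -0.40, 1.96 and -1.02. None of the 5 genes of the immune proteasome was called, beside 6.33% of all genes. Mice 1 and 4 thus had the highest differences in all 5 genes, mouse 5 was below 0 in all 5, and mouse 3 was below 0 in all but Psme1.

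Of the 8 genes of the interferon response, some had such an order of mice and others did not. Irf7 had differences of 1.68, 0.06, -0.45, 1.06 and -1.03 and Oasl2 of 1.21, 0.17, -0.49, 1.14 and -0.84 in mice 1 to 5. Ifit3 had -0.75, 0.01, 0.41, 1.29 and 0.51, with mouse 1 the lowest, and Usp18 had 0.31, 0.78, -0.04, 1.47 and 0.17, with mouse 2 above mouse 1. Ifit1 was the 1 gene of 8 called higher, beside 3.60% of all genes, and its call was lost in 6 of 11 alternatives. It was above 0 in all 5 mice, and Rsad2 had its largest difference, 3.83, in mouse 5. The summed level of the 8 interferon genes was 155 to 269 CPM in control eyes and 223 to 464 CPM in Nrf2 eyes. The summed macrophage markers were at 741, 295, 619, 910.2 and 1546 CPM in the Nrf2 eyes of mice 1 to 5. With the rod covariate, the log2 fold change of Psmb10 was 0.11, against 0.27 in the reported fit. The median of the activators was 0.18 with it, against 0.28. Apart from that fit, the part of interferon and of other cell types in the values of these members was not tested.

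**Figure D4:**
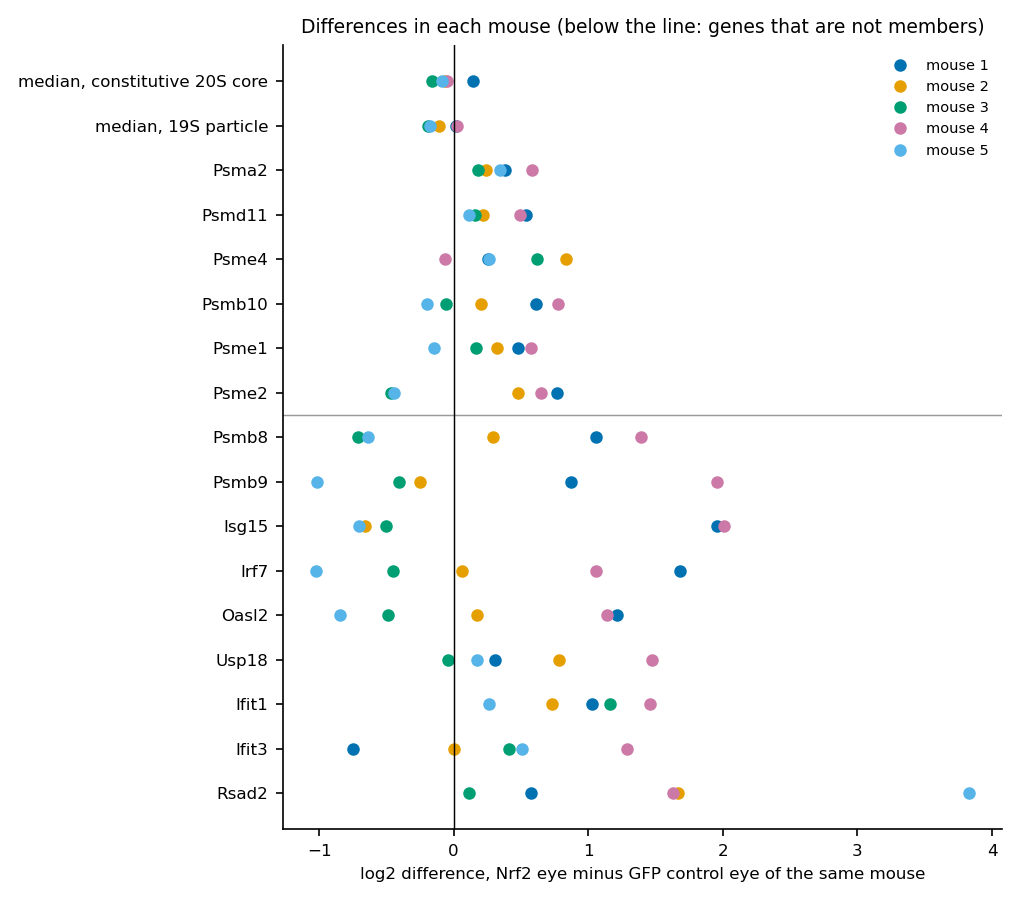
Log2 difference between the Nrf2 eye and the control eye of the same mouse (x axis) for the medians of the constitutive core and of the 19S particle, for 6 members, and, below the grey line, for 9 genes that are not members, Psmb8, Psmb9 and 7 interferon genes. Mice 1 and 4 lie to the right in Psmb10, Psme1, Psme2, Psmb8, Psmb9, Isg15, Irf7 and Oasl2 but not in Usp18, Ifit1, Ifit3 and Rsad2, while the medians of the core and of the 19S particle stay between -0.19 and 0.14.

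Over the constitutive subunits, the median difference in mice 1 to 5 was 0.14, -0.06, -0.16, -0.05 and -0.09 over the 14 core genes and 0.02, -0.11, -0.19, 0.02 and -0.17 over the 17 genes of the 19S particle. Neither had 1 sign in all mice. Mice 1 and 4 had the highest medians in both, and also in the translation factor eIF3 (0.19, -0.10, -0.11, 0.04 and -0.22). In the COP9 signalosome mouse 4 had the lowest (-0.18). The summed level of the core genes was 1470 to 1645 CPM in control eyes and 1423 to 1644 CPM in Nrf2 eyes, and that of the 19S genes was 2038 to 2273 and 2020 to 2190 CPM, so the ranges of the groups overlapped in both. Within mice, both sums were higher in the Nrf2 eye of mouse 1 and lower in that of mice 2 to 5. The activators had per-mouse medians of 0.29, 0.32, 0.17, 0.58 and -0.06. These medians are over genes of 1 complex and were not tested.

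Other genes of the pathway were taken from 3 lists. Of 13 tested genes of assembly and regulation, which include the chaperones Psmg1 to Psmg4 and the inhibitor Psmf1, 1 was called higher and 0 lower, with a median of -0.01. This share of 1 in 13 is near the 6.33% of all genes called. The gene was Akirin2 (chromosome 4, 34550937 to 34566908), whose product escorts proteasomes into the nucleus. It had 41.6, 47.3, 47.8, 47.0 and 47.8 CPM in control eyes and 72.7, 71.9, 77.8, 64.9 and 68.7 CPM in Nrf2 eyes, with no overlap, and rose by a log2 fold change of 0.62 (adjusted p = 0.00853, SE 0.06). In the list of 15 genes of ubiquitin and its shuttles, 1 was called, again near the 6.33% of all genes. It was Sqstm1, the gene of the autophagy receptor p62 and a known Nrf2 target, which rose to 862 ± 69.4 from 489.8 ± 57.1 CPM (log2 fold change 0.82, adjusted p = 0.00836, SE 0.09). The call of Sqstm1 was lost in 1 of 11 alternatives, with the rod covariate. The ubiquitin gene Ubb had a log2 fold change of -0.20 and was not called.

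Of 8 genes for factors that act on proteasome transcription, 2 were called higher, beside 3.60% of all genes: the delivered factor's own gene Nfe2l2 (log2 fold change 1.97) and Mafg, a small Maf partner of Nrf2 (log2 fold change 0.77, adjusted p = 0.0124, SE 0.13). Nfe2l1 had 314 ± 50.8 CPM in control eyes and 250.4 ± 65.1 CPM in Nrf2 eyes, lower in all 5 mice, but its log2 fold change of -0.35 (SE 0.09) was not called (adjusted p = 0.121). Ddi2 and Ngly1, which process Nrf1, had log2 fold changes of 0.07 and -0.21 and were not called either.

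The members were set beside 2 complexes whose architecture is related to that of the lid, the COP9 signalosome, which removes Nedd8 from ubiquitin ligases, and the translation factor eIF3. In the lid 0 of 8 genes were called, in the COP9 signalosome 0 of 9 and in eIF3 0 of 14, beside the 6.33% of all genes. Their median log2 fold changes were -0.05, -0.07 and -0.06. The 95% intervals of all genes of these 3 groups lay within 1.5-fold. By these counts and medians the small values of the proteasome genes were not particular to them.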

How the data were processed

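RNA of 10 libraries, 2 eyes of each of 5 mice, was compared. The authors aligned reads with STAR to mm10 with Ensembl release 91 and counted them with featureCounts, and in parallel estimated counts with Salmon (0.8.2 per the labels). The deposited values are raw counts per gene, and which of these tables they are, the strand setting and filters are not given in the sources used here. Symbols and positions are from GENCODE M21 (47310 of 47729 genes matched, same build). The table had 0 columns of other samples.

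The test on the counts was that of edgeR 4.0.16, run in R 4.3.3 (filterByExpr, TMM, quasi-likelihood F test with mouse as a block, Benjamini-Hochberg over all genes, threshold 0.05). Adjusted p-values are from this test unless DESeq2 1.42.0 is named. SE is the SD of the 5 within-mouse log2 CPM differences (prior count 2) over the square root of 5. Intervals are from limma-voom (limma 3.58.1), chosen after the data were seen. Scripts were tested on simulated data. The labels number the animals, and eyes were paired by them. Across genes, which are not independent replicates, Pearson's r of the deviations from group means was 0.19 to 0.71 within mice and -0.42 to 0.28 (median -0.08) between mice. The labels give 2 sequencing runs without tying them to samples, so runs were not compared.

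The members and lists were chosen with earlier results of these data known. Values in every library are given for the proteolytic subunits, Pomp, Psmd14, the activators, any member called and the member with the smallest difference in each role group. Alternatives were no block, DESeq2's size factors in edgeR, no low-count filter, DESeq2, a rod covariate, each mouse left out and limma-voom. Psma8, Psmb1, Psmb2, Psmb7, Psmc3, Psmd3 and Psmd7 had no promoter entry.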

Additional observations from a re-analysis of the deposited data

Results flagged for a closer look

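In each group of 5 eyes, the highest or lowest value of a tested member was set against the rest, and was singled out where its gap to the nearest other value was more than 0.71 of the range. This held in 4 of 86 groups, and chance gives about 4.3. Psma4, an alpha ring subunit, had 62.8 CPM in the Nrf2 eye of mouse 2 and 73.6 to 77.3 CPM in the other Nrf2 eyes. Psmc6 had 63.2 CPM in the Nrf2 eye of mouse 5 and 54.8 to 56.2 CPM in the others.

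Psmc3ip, the factor of meiotic recombination, had 14.7 CPM in the control eye and 13 CPM in the Nrf2 eye of mouse 1, and 3.49 to 4.74 CPM and 2.67 to 3.22 CPM in the eyes of the other mice. Both eyes of this mouse thus stood apart from those of the other 4. It was lower in the Nrf2 eye of all 5 mice (log2 fold change -0.43, SE 0.11, adjusted p = 0.300 by edgeR). It overlaps Mlx on the opposite strand, which has more counts and a log2 fold change of -0.26, and the part of those reads was not tested.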

How the results depend on the processing

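Under the alternatives no member was called except Psma2, with DESeq2 (log2 fold change 0.35, adjusted p = 0.0370), which gave 1 member higher. Of the 473 member values recomputed, 448 kept their direction and side of the threshold. Without the replicate block 755 of all genes were called and 0 members, with 1049 under DESeq2's size factors, 1168 with no low-count filter and 1094 under limma-voom. DESeq2 called 1812, the rod covariate left 408, and leaving out 1 mouse gave 584 (without mouse 2) to 857 genes, with 613 without mouse 4 and 683 without mouse 5. Fewer samples enter the latter fits, and the cause of the others was not tested.

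Sign changes occurred in 10 members, at values of at most 0.0758 on the log2 scale. In each fit that left out 1 mouse the median of all genes was also above 0, at 0.01 to 0.04, against -0.01 in the reported fit. The part of this shift in the sign changes was not tested. With the rod covariate Psmb4 went to 0.0288, Psmd8 to 0.0146 and Psme3 to 0.0104. With each mouse left out in turn, the log2 fold changes were Psmb2 -0.0454 to 0.0758, Psmb4 -0.0786 to 0.0275, Psmb6 -0.0858 to 0.0332, Psmc4 -0.0323 to 0.0573, Psmc5 -0.099 to 0.0328, Psmc6 -0.0415 to 0.047, Psmd12 -0.0713 to 0.0182, Psmd6 -0.0684 to 0.064, Psmd8 -0.0465 to 0.0363 and Psme3 0.000582 to 0.0352. The median of the members was -0.04 to 0.03 with 1 mouse left out, the latter without mouse 3. The median of the beta subunits was also above 0 without mouse 2 (0.01), and that of the assembly chaperones without mouse 5 (0.02). Sqstm1 lost its call with the rod covariate (0.77), Ifit1 in 6 and Otx2 in 7 of 11 alternatives. Depth limits Psma8, Psmb11 and Psme2b, which had few counts.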
